A study of Mus musculus with 4 samples.

Results

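The coagulation cascade and the complement system are chains of plasma proteases and cofactors that the liver secretes. In coagulation, contact factors and tissue factor start proteolytic steps that meet at factor X and end with thrombin, while antithrombin, protein C and protein S hold the cascade back and plasmin dissolves the clot. In complement, the classical, lectin and alternative routes converge on C3, and the terminal proteins C5, C6, C8 and C9 assemble into a pore in target membranes. Hepatocytes are the best known source of most of these proteins, and the genes below were described in nuclei of hepatocytes and of 5 other liver cell types.

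The 32 genes were taken from a list of coagulation and complement proteins and were all found among the 54464 gene rows of the count matrix. They comprised 11 coagulation and contact factors (F2, F5, F7, F9, F10, F11, F12, F13b, Klkb1, Kng1, Kng2), 5 inhibitors or fibrinolytic proteins (Serpinc1, Serpinf2, Plg, Proc, Pros1), 7 early complement proteins (C2, C3, C4b, Cfb, Masp1, Masp2, Mbl2), 6 terminal complement proteins (Hc, C6, C8a, C8b, C8g, C9) and 3 complement regulators (Cfi, C4bp, Vtn). All 32 are annotated as protein coding.

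Single-nucleus RNA-Seq was performed on liver from 3 WT mice, which carried the conditional Nampt allele (C57BL6/BomTac Nampt cKO) without Cre, and 3 HNKO littermates, which carried that allele with Alb-Cre (C57BL6/BomTac Alb-Cre Nampt cKO). Nampt encodes the rate-limiting enzyme of NAD salvage, and the albumin promoter directs Cre to hepatocytes. All mice were fed a purified control diet for 6 weeks. Per the study's methods they came from a cohort of females aged 8 to 12 weeks at the start of feeding, in which some mice drank nicotinamide riboside, and which mice did so is not given in the sources used here. Bile was collected under anaesthesia before the livers were taken from that cohort. Nuclei carried a hashtag of their mouse and were sequenced in 2 pools, so that the mouse, and not the pool, is the replicate here, with n = 3 per genotype.

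The matrix held 5193 nuclei with distinct barcodes, 629 to 1063 per mouse, of which 562 to 847 per mouse were hepatocytes. Hepatocyte sums held 3524002 to 6634777 unique molecular identifiers (UMIs). Hepatocyte Nampt did not separate the genotypes (101.6 ± 8.51 CPM in WT and 103.8 ± 39.3 CPM in HNKO mice, SD, n = 3, edgeR FDR 0.985), so that genotype rests on the labels alone. Markers listed for each type were highest in the nuclei bearing that name for 34 of 35 genes, the exception being Bank1 of the CD45+ list. Nuclei of HNKO mice 1 and 3 stood apart, as the 5 hepatocyte clusters named with HNKO drew over 90% of their nuclei from one or the other of them, whereas HNKO mouse 2 shared clusters with WT mice. The TMM factor, which rescales each library for its composition, was 1.28 in HNKO mouse 3 and 0.917 to 1.01 in the other mice. The 32 genes together took 0.656%, 0.617% and 0.493% of the hepatocyte UMIs of WT mice 1, 2 and 3, respectively, against 0.532%, 0.624% and 0.841% of those of HNKO mice 1, 2 and 3.

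The promoters of the genes on which the results below turn are shown first, to place each gene in the genome. C6 (chromosome 15, 4727175 to 4814967, plus strand) and C9 (chromosome 15, 6445327 to 6498751, plus strand) lie 1630 kb apart. C8a (chromosome 4, 104815679 to 104876398, minus strand) and C8b (chromosome 4, 104766317 to 104804548, plus strand) face each other with 11.1 kb between their ends. C4bp lies on chromosome 1 (130634773 to 130661632, minus strand) and Pros1 on chromosome 16 (62854307 to 62929346, plus strand), all in GRCm38. The sequences are the 150 bases that end just before the annotated gene start, from RefSeq on GRCm38.p6, read 5′ to 3′ on the strand of the gene. Capitals mark the motifs named after the sequences.
C6, chr15:4727025-4727174, plus strand: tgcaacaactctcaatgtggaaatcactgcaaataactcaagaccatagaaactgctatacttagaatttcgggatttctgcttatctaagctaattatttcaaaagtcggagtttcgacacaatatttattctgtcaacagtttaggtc
C9, chr15:6445177-6445326, plus strand: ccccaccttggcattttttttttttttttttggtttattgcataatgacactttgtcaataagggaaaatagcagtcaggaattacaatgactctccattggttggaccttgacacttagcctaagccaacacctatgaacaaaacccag
C8a, chr4:104876399-104876548, minus strand: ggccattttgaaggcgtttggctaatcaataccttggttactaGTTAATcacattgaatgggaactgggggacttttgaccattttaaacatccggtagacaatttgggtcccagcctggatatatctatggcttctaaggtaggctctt
C4bp, chr1:130661633-130661782, minus strand: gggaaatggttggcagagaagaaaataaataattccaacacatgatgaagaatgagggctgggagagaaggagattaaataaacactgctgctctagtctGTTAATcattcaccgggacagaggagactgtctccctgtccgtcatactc
Pros1, chr16:62854157-62854306, plus strand: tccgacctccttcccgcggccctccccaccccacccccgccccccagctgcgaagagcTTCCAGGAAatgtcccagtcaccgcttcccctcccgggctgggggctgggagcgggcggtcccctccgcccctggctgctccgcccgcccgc

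A RefSeq promoter window, from 250 bases before to 50 bases after the start, was found for 24 of the 32 genes. The windows were searched on both strands for motifs of liver-related factors. GTTAAT, a half-site of the hepatocyte factor HNF1, was present in 7 of 24 windows (C4bp, C8a, C8b, F13b, F2, Hc and Vtn), which is 29.2%, against 7.10% of 32851 windows of all genes. TTCNNNGAA, the palindrome read by STAT factors, was present in 5 of 24 (C8a, F9, Masp2, Pros1 and Vtn), which is 20.8%, against 8.30% of all windows. TTGCNNCAA, a C/EBP motif, was found in C6 alone (2.08% of all windows), and not wholly within the stretch printed here. CTTTGAT, the motif of the Wnt effectors TCF and LEF, was found in Masp2 alone (3.73% of all windows). In the printed stretches, the HNF1 half-site lies 107 to 102 bases before the RefSeq start of C8a and 64 to 59 bases before that of C4bp, and the STAT palindrome lies 92 to 84 bases before that of Pros1. These are matches of letters and not measured binding.

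To determine whether hepatocyte transcripts of these genes differed between genotypes, UMIs of hepatocyte nuclei were summed per mouse and tested with edgeR. The highest fitted differences were those of terminal complement genes, with C6, C9 and C8a at log2 fold changes of 2.71, 1.02 and 0.98, while all 11 coagulation and contact factors had negative values of -0.06 to -0.52. None of these differences passed the threshold. All 32 genes had enough counts to be tested, and 0 of them passed an FDR of 0.05, as did 0 of all 11808 genes tested (0%). The smallest FDR of a member was 0.82 by edgeR, and DESeq2 also called 0 of the 32 (smallest 0.79) while it called 21 of all genes. At an unadjusted p below 0.05, 3 members were higher in HNKO mice (C6, C8b and C4bp) and none was lower, against 3.86% of all genes higher and 2.05% lower. Values of 1 member were higher in every HNKO mouse than in every WT mouse and those of 2 members were lower, where 6.43% of all genes lay wholly higher and 5.17% wholly lower.

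The median log2 fold change of the 32 genes was -0.08, with 13 positive and 19 negative, against 0.02 for all genes tested. This sign depends on the scaling and on 1 mouse. With library size alone the median of the members was 0.14, and that of all genes moved from 0.02 to 0.20. Without HNKO mouse 1 the members' median was 0.076, above the 0.02 of all genes. The 11 coagulation and contact factors were all negative with TMM. Of these, 7 of 11 were negative with library size alone, 8 of 11 without HNKO mouse 1 and 8 of 11 without WT mouse 1. Of the 6 terminal genes, 5 were positive on both scales. When single mice were left out, 4 to 6 of them were positive, with 4 without WT mouse 3. The role groups were formed with these values known and received no test.

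**Figure D1:**
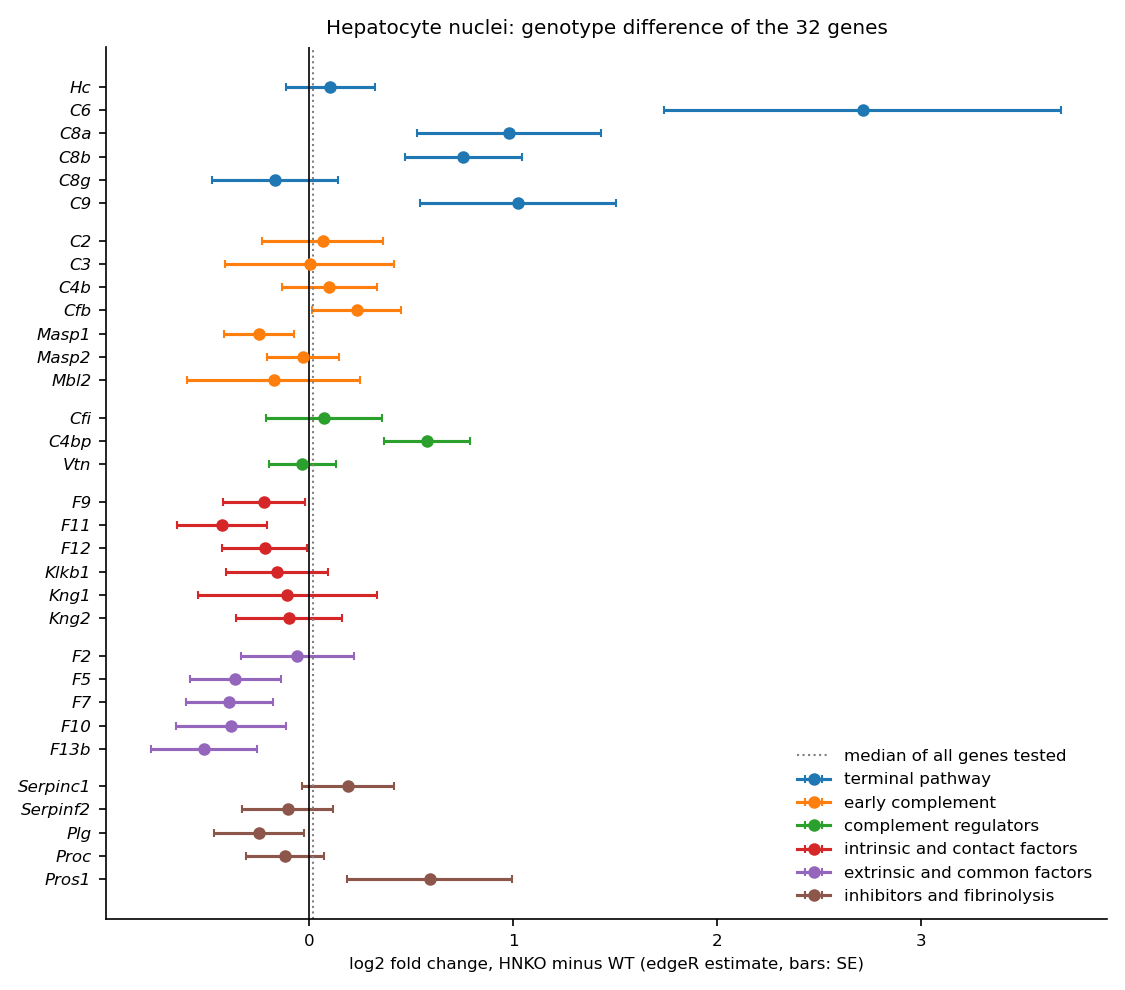
Fitted log2 fold change (HNKO minus WT) of each of the 32 genes in hepatocyte nuclei, with standard errors as bars, coloured by role in the cascade, and the median of all genes tested as a dotted line. The 5 highest values belong to C6, C9, C8a, C8b and Pros1 (2.71 to 0.59), the 11 coagulation and contact factors lie left of zero on this TMM scale, and none passed the FDR threshold.

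The terminal complement genes were uneven among the HNKO mice. C6, a subunit that joins C5b in the first steps of pore assembly, stood at 21.9, 5.26 and 2.64 CPM in WT mice 1, 2 and 3 and at 118.4, 9.15 and 63.5 CPM in HNKO mice 1, 2 and 3. HNKO mice 1 and 3 lay above every WT mouse, and HNKO mouse 2 lay between WT mice 1 and 2. The log2 fold change was 2.71 (SE 0.97, unadjusted p = 0.024, edgeR FDR 0.82), and it was 3.23 with FDR 0.19 when HNKO mouse 2 was left out, 1.91 when HNKO mouse 1 was left out and 4.01 when WT mouse 1 was left out.

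C9, the subunit that polymerises to form the wall of the pore, stood at 182.0, 85.5 and 80.8 CPM in the WT mice and at 322.2, 98.8 and 285.4 CPM in the HNKO mice. C8a, which encodes the alpha chain of C8, stood at 159.5, 75.8 and 97.1 CPM in the WT mice and at 306.2, 92.8 and 255.5 CPM in the HNKO mice. For both genes HNKO mice 1 and 3 were again above every WT mouse and HNKO mouse 2 was within the WT range. The fitted differences were 1.02 (SE 0.48, edgeR FDR 0.82) for C9 and 0.98 (SE 0.45, edgeR FDR 0.82) for C8a. Without HNKO mouse 1 they were 0.73 and 0.66, and without HNKO mouse 2 they were 1.39 and 1.35.

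C8b, the beta chain of C8, did not follow this split by mouse. It stood at 24.7, 13.4 and 15.4 CPM in the WT mice and at 23.0, 37.6 and 29.4 CPM in the HNKO mice, so that HNKO mouse 2 was the highest and HNKO mouse 1 was below WT mouse 1 (log2 fold change 0.76, SE 0.29, unadjusted p = 0.031, edgeR FDR 0.82). Hc, which encodes C5, ranged from 299.7 to 454.5 CPM in WT mice and from 397.6 to 451.0 CPM in HNKO mice. C8g, the gamma chain of C8, ranged from 10.0 to 12.7 CPM in WT mice and from 7.45 to 14.8 CPM in HNKO mice. The HNKO values of Hc lay within the WT range, and those of C8g spanned it.

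C4bp, which encodes C4b-binding protein, an inhibitor of the classical and lectin routes, was the member whose HNKO values all lay above the WT values. It stood at 205.8, 191.2 and 199.7 CPM in the WT mice and at 349.9, 222.8 and 317.7 CPM in the HNKO mice. HNKO mice 1 and 3 were again the highest (log2 fold change 0.58, SE 0.21, unadjusted p = 0.026, edgeR FDR 0.82). Pros1, which encodes protein S, a cofactor of activated protein C, stood at 108.6, 97.3 and 63.2 CPM in the WT mice and at 218.6, 69.9 and 116.4 CPM in the HNKO mice, with HNKO mice 1 and 3 above the WT mice and HNKO mouse 2 within them (log2 fold change 0.59, SE 0.40, edgeR FDR 0.83). The other regulators were near equal, with Cfi, the protease that cleaves C3b and C4b, at 0.07 and Vtn, which blocks insertion of the terminal complex, at -0.03.

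**Figure D2:**
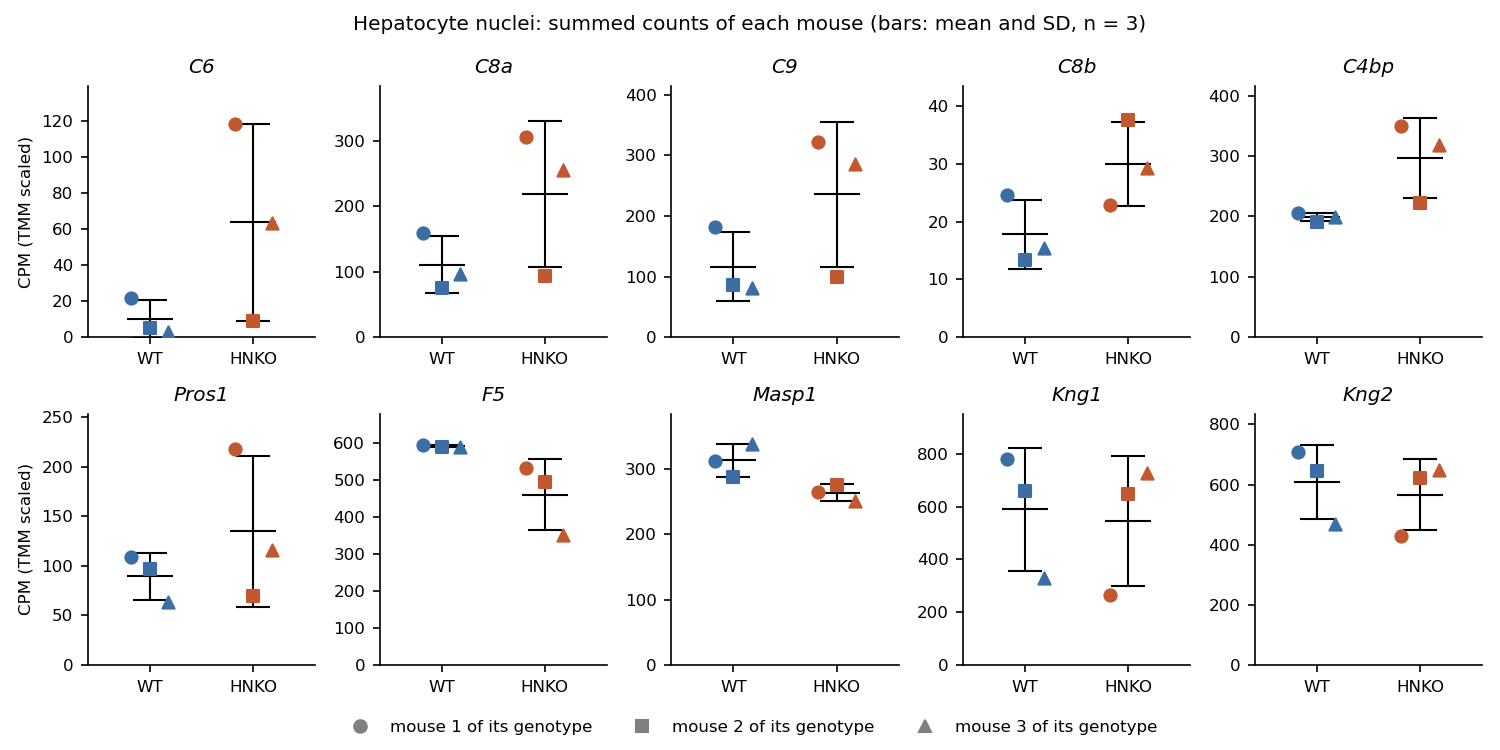
TMM-scaled CPM of 10 genes in the summed hepatocyte nuclei of each mouse, with WT mice in blue, HNKO mice in orange, a symbol for each mouse number and the mean and SD (n = 3) as bars. C6, C8a, C9 and Pros1 are highest in HNKO mice 1 and 3 while HNKO mouse 2 sits among the WT mice, and F5 and Masp1 lie below the WT mice in every HNKO mouse.

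The share of nuclei in which these transcripts were seen was examined to tell whether a few nuclei carried the sums. At least 1 UMI of C6 was present in 4.98%, 2.66% and 1.67% of the hepatocyte nuclei of WT mice 1, 2 and 3. The share reached 36.0%, 4.64% and 30.0% in HNKO mice 1, 2 and 3, and in endothelial nuclei it was 0% in each WT mouse and 12.7%, 1.96% and 4.76% in the HNKO mice. Hepatocyte nuclei of HNKO mice held more UMIs per nucleus than those of WT mice (median 4800 to 5786 UMIs against 3572 to 4162). After every nucleus had been thinned to 1000 UMIs, the expected shares were 1.76%, 0.641% and 0.379% for the WT mice and 9.16%, 1.00% and 7.52% for the HNKO mice, with the same order of the mice. The 292 and 254 hepatocyte nuclei with C6 in HNKO mice 1 and 3 were therefore many nuclei with few UMIs each, with at most 13 in any of them. For C9, thinned shares were 6.12% to 13.2% in WT mice and 22.9%, 8.56% and 27.6% in HNKO mice 1, 2 and 3, where endothelial nuclei, which are not known to make C9, had 2.10% to 4.29% (median 2444 to 3260 UMIs).

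Because Kupffer nuclei held far more C6 than hepatocyte nuclei (described below), Kupffer markers were read in the same hepatocyte sums. The 5 markers together stood at 5.96, 8.61 and 3.82 CPM in WT mice and at 5.58, 6.01 and 11.3 CPM in HNKO mice 1, 2 and 3, with 2 markers at 0 in WT mouse 1 and 1 in HNKO mouse 2. In HNKO mouse 1, which had the highest C6, they lay within the WT range. In HNKO mouse 3, which had the next highest C6, they lay above every WT mouse. The part of Kupffer RNA in the C6 sums was not tested. Of its hepatocyte nuclei with C6, 3.77% also held a Kupffer marker UMI, against 4.23% of those without C6, and in HNKO mouse 3 these shares were 5.12% and 4.72%. In WT mice 1, 2 and 3 they were 7.14% against 3.00%, 5.26% against 3.89% and 9.09% against 2.32%. In HNKO mouse 2 they were 7.89% against 3.20%. The C6 shares of these mice rested on 2, 1, 1 and 3 nuclei, respectively. The 6 stellate markers summed to 42.8 to 90.6 CPM in WT hepatocytes and to 196.4, 33.9 and 123.7 CPM in HNKO mice 1, 2 and 3, nearly all of it from Reln, with Lrat at no more than 0.675 CPM in any mouse. The 6 cholangiocyte markers summed to 13.5 to 18.7 CPM in WT hepatocytes and to 29.7, 12.5 and 43.9 CPM in HNKO mice, led by Spp1, with Krt19 at 0 in all 6. These 2 sums followed the same split of the HNKO mice as C6, C8a and C9, and their part in it was not tested.

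Among the clotting factors, F5 showed a lower level in every HNKO mouse. F5, the cofactor of factor Xa, was nearly constant in WT mice at 593.5, 589.5 and 588.8 CPM and stood at 533.1, 493.4 and 350.7 CPM in HNKO mice (log2 fold change -0.36, SE 0.22, edgeR FDR 0.82). With HNKO mouse 3 left out it was -0.19. F13b, the carrier subunit of factor XIII, and F11, a contact factor, had the most negative values of the list (-0.52, SE 0.26 and -0.43, SE 0.22, edgeR FDR 0.82 for both), with mice of both genotypes overlapping. F7 and F10, neighbours 1.5 kb apart on chromosome 8, stood at -0.39 and -0.38. F2, prothrombin, was at -0.06.

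Kng1 and Kng2 are kininogen genes 28.4 kb apart with near-identical sequence, so that the division of UMIs between them is uncertain. Kng1 stood at 779.8, 657.1 and 329.5 CPM in WT mice and at 265.5, 646.6 and 727.1 CPM in HNKO mice. Kng2 stood at 707.3, 645.8 and 469.9 CPM in WT mice and at 429.6, 622.7 and 648.0 CPM in HNKO mice. Both varied more within a genotype than between genotypes, with fitted differences of -0.11 (SE 0.44) and -0.10 (SE 0.26) that turned positive with library size alone (0.13 and 0.11). HNKO mouse 1 was the lowest of all mice for both genes.

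In the inhibitors and fibrinolytic proteins, Serpinc1 (antithrombin) was at 0.19, Proc (protein C) at -0.12, Plg (plasminogen) at -0.25 and Serpinf2 (the plasmin inhibitor) at -0.11, all with overlapping mice. Among early complement genes, Masp1, a protease of the lectin route, was at 312.8, 287.5 and 339.1 CPM in WT mice and at 264.7, 276.0 and 251.1 CPM in HNKO mice. Every HNKO mouse lay below every WT mouse, by a difference (log2 fold change -0.25, SE 0.17, edgeR FDR 0.83) that was -0.07 with library size alone. Without TMM scaling the genotypes overlapped, at 287.7, 276.6 and 317.1 CPM for WT mice 1, 2 and 3 and 241.2, 277.1 and 318.9 CPM for HNKO mice 1, 2 and 3. C3, the hub of all routes, ranged from 141.3 to 389.6 CPM in WT mice and from 169.1 to 389.3 CPM in HNKO mice, with a fitted difference of 0.00 (SE 0.42). C4b, whose reads can be shared with its near-identical neighbour C4a, was at 0.10, and Cfb, C2, Masp2 and Mbl2 were between -0.17 and 0.23.

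A further 24 coagulation genes and 27 of 28 listed complement genes were examined as context. Of these, 16 and 13 had enough hepatocyte counts to be tested, and 0 passed the FDR threshold by edgeR or by DESeq2. The fibrinogen chains Fga, Fgb and Fgg were at 0.10, -0.07 and -0.20. The unadjusted p was below 0.05 for 1 gene of each list. These were F3, which encodes tissue factor (log2 fold change 1.04, SE 0.43, edgeR FDR 0.82), and Clu, which encodes clusterin, a protein that keeps terminal complexes in solution (0.74, SE 0.28, edgeR FDR 0.82). F3 was scarce, at 2.31 CPM in WT and 4.88 CPM in HNKO hepatocytes on average, and Clu reached 769 CPM in cholangiocyte nuclei.

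Hepatocytes are arranged along a gradient from the portal to the central vein, and the authors' cluster names divide them accordingly. The 3 clusters named Central held 39, 49 and 43 nuclei in WT mice and 100, 81 and 78 in HNKO mice, and were set against the other hepatocyte clusters of the same mouse as a log2 ratio of CPM, with no test. As a check of the names, 8 of 9 pericentral genes were positive in all 6 mice (the exception was Rgn) and 8 of 9 periportal genes were negative in all 6 (the exception was Pck1). Of the 32 genes, 3 were positive in all 6 mice and 4 were negative, which is 9.38% and 12.5%, against 7.18% and 7.86% of the genes tested in hepatocytes. The clusters were built on the same counts.

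C9 was low in Central nuclei of every mouse. Across WT mice 1, 2 and 3 the log2 ratio was -4.17, -2.45 and -5.54, and across HNKO mice 1, 2 and 3 it was -2.37, -2.97 and -1.87. In the Central nuclei of WT mice it stood at 8.08, 12.5 and 0 CPM, from about 2 UMIs, 2 UMIs and none, against 180.0, 85.3 and 80.7 CPM in the other hepatocytes. In HNKO mice 1 and 3 Central nuclei held 63.3 and 104.1 CPM, which is above the Central level of the other 4 mice, and the other hepatocytes held 330.7 and 384.4 CPM. Both sides were thus high in these mice.

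Pros1 had the opposite placement, with positive log2 ratios in every mouse (1.66, 1.14 and 1.47 for WT mice 1, 2 and 3, then 1.48, 1.98 and 0.60 for HNKO mice 1, 2 and 3). Its Central level was 271.5, 194.6 and 145.2 CPM in WT mice and 446.1, 230.0 and 214.6 CPM in HNKO mice, and it was 53.1 to 159.7 CPM in the remaining hepatocytes. F5 and Proc were also positive in all 6 mice. Their ratios were smaller, at 0.03 to 0.55 for F5 and 0.10 to 0.53 for Proc. Vtn, Hc and F9 were negative in all 6 mice, at -0.56 to -1.08, -0.11 to -0.62 and -0.12 to -0.97.

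C6 stood higher in Central nuclei than in the other hepatocytes of 4 mice and near level in HNKO mice 1 and 3. Central against other hepatocytes it stood at 207.8 against 5.21 CPM in WT mouse 1, 25.1 against 4.35 CPM in WT mouse 2, 3.68 against 2.40 CPM in WT mouse 3 and 39.2 against 7.05 CPM in HNKO mouse 2, where the value of WT mouse 3 rested on a single UMI. In WT mouse 1, 14 of 39 Central nuclei held C6, as many as among its 523 other hepatocytes. In HNKO mouse 1 the levels were 101.4 against 108.9 CPM, with C6 in 248 of 712 hepatocytes outside the Central clusters. In HNKO mouse 3 they were 87.9 against 79.9 CPM, with C6 in 233 of 769. When the Central clusters were left out of the genotype comparison, the log2 fold change of C6 was 3.91 (SE 0.93, edgeR FDR 0.77).

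C8a divided the mice in the same way. The 3 WT mice had log2 ratios of 0.27, 0.22 and 0.19 and HNKO mouse 2 had 0.45, whereas HNKO mice 1 and 3 had -1.04 and -1.01. In these 2 mice the Central level of 145.4 and 166.5 CPM was in the range of the other mice (81.5 to 173.1 CPM), and the level in the other hepatocytes was 300.5 and 338.0 CPM against 72.6 to 144.6 CPM elsewhere. C4bp, in contrast, was near level along the gradient, with ratios of -0.10 to 0.28 in 5 mice and 1.15 in WT mouse 3.

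**Figure D3:**
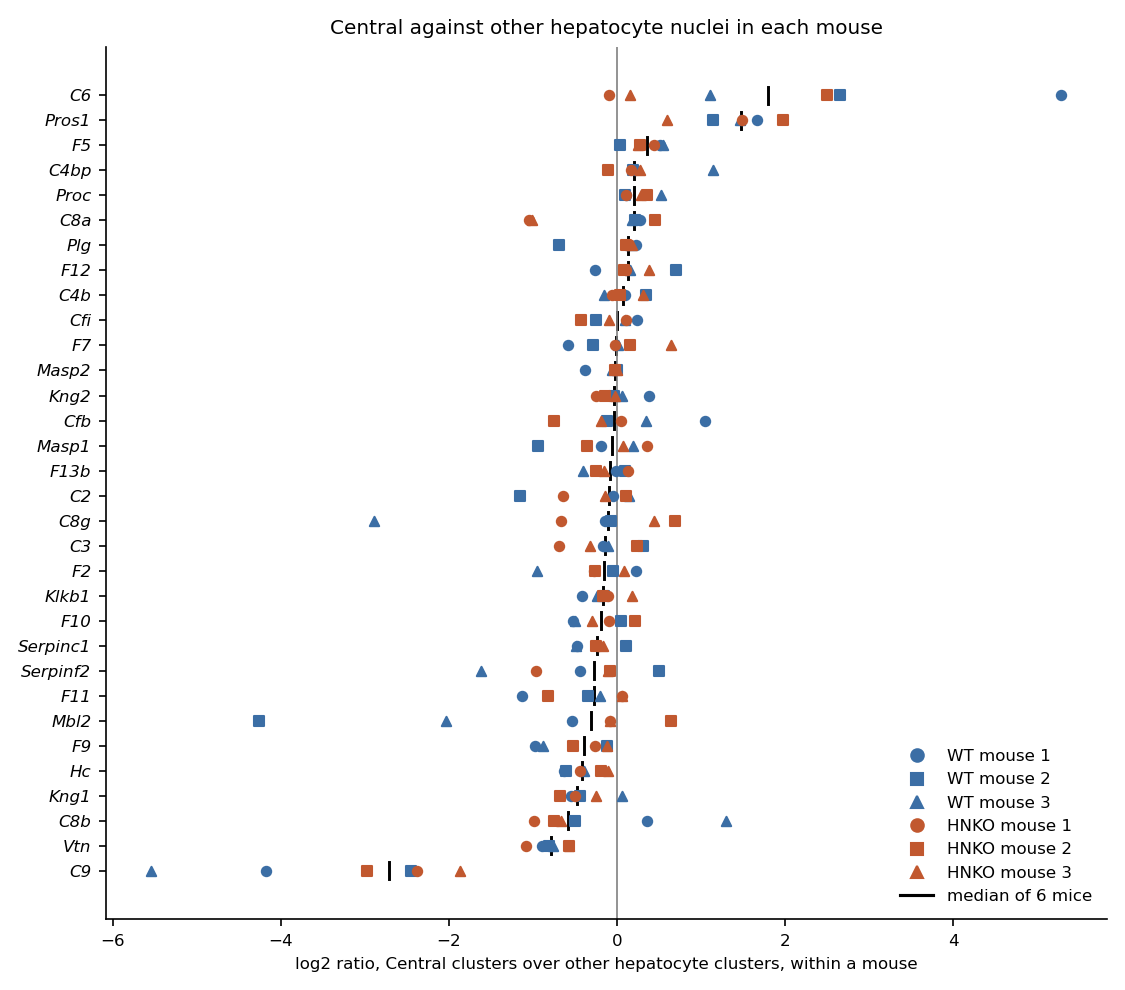
Log2 ratio of CPM in Central clusters over other hepatocyte clusters within each mouse, for the 32 genes in the order of their medians, with WT mice in blue, HNKO mice in orange and the median of 6 mice as a black tick. C9 lies lowest (median -2.71), Pros1 is above zero in every mouse (median 1.47), and for C6 and C8a HNKO mice 1 and 3 lie to the left of the other 4 mice.

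The level in the authors' 13 hepatocyte clusters repeated this picture, where 9 clusters drew over 90% of their nuclei from a single mouse and so cannot be told apart from that mouse. C6 was at 1.94 to 14.0 CPM in the 7 clusters named Periportal or Hepatocytes, at 67.1 CPM in Central 1 and at 56.2 to 110.4 CPM in the 5 clusters named with HNKO. The level in Central 1 was carried by WT mouse 1 (207.8 CPM), as nuclei of WT mouse 2, WT mouse 3 and HNKO mouse 2 in that cluster held 25.1, 3.68 and 39.5 CPM. C9 was at 8.91 CPM in Central 1, at 63.5 and 104.1 CPM in Central HNKO 1 and 2, at 75.3 to 198.7 CPM in the Periportal and Hepatocytes clusters and at 336.6 to 384.0 CPM in the clusters HNKO 1, 2 and 3. Pros1 was highest in Central HNKO 1, at 451.9 CPM, and lowest in Periportal 1, at 47.4 CPM.

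**Figure D4:**
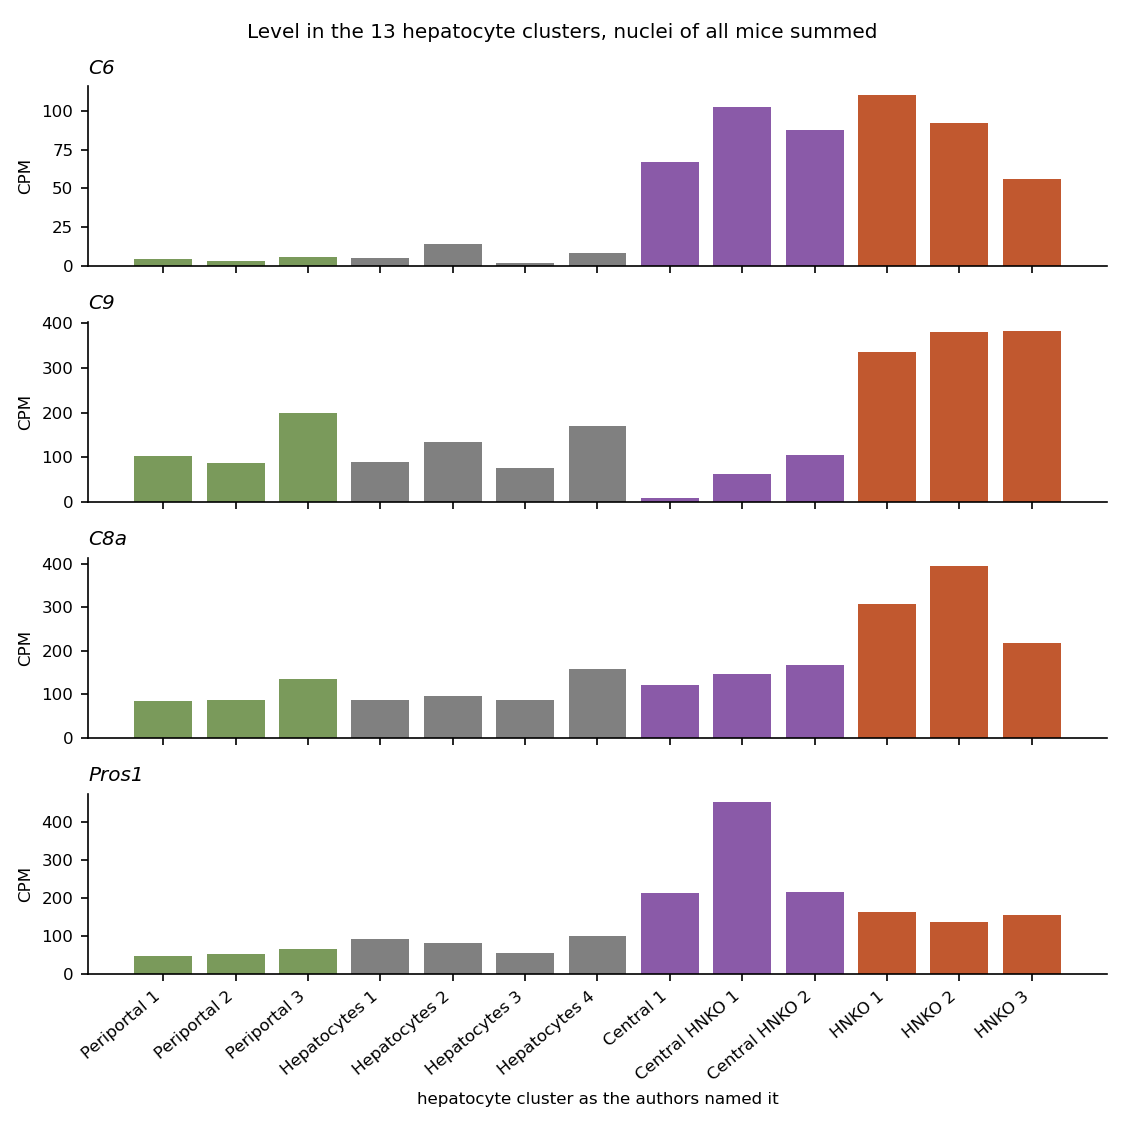
CPM of C6, C9, C8a and Pros1 in the 13 hepatocyte clusters, as bars from 0, with nuclei of all mice summed and clusters coloured by the first part of their name. C6 is low in all Periportal and Hepatocytes clusters (1.94 to 14.0 CPM) and C9 is lowest in Central 1 (8.91 CPM), while the clusters HNKO 1, 2 and 3 hold 336.6 to 384.0 CPM of C9.

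To find which other liver cells held these transcripts, CPM in each other type was expressed as a percentage of the hepatocyte CPM, with the mice summed. Nuclei of every type carried hepatocyte RNA, and 10 reference genes that only hepatocytes are known to express at high level (such as Alb, Apob and Ttr) gave its range. They stood at 26.4% to 58.1% of their hepatocyte level in 245 endothelial nuclei, at 7.40% to 45.9% in 171 stellate nuclei, at 12.2% to 56.9% in 80 Kupffer nuclei, at 34.9% to 81.5% in 177 CD45+ nuclei and at 3.86% to 48.2% in 110 cholangiocyte nuclei. A member at or below the highest of these values was read as background. Of the 160 pairs of member and type, 19 exceeded it with at least 10 UMIs.

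C6 in Kupffer nuclei stood furthest from the hepatocyte level. Kupffer cells, the resident macrophages of the liver, held it at 22.6-fold the hepatocyte CPM when all mice were summed, with 296 UMIs in 80 nuclei. Within HNKO mice 1, 2 and 3 the ratio was 8.36-fold, 119.8-fold and 12.6-fold, against hepatocyte levels of 107.9, 9.24 and 80.6 CPM, and without HNKO mouse 1 the sum over mice moved from 2256% to 4030%. C6 stood at 902, 1107 and 1011 CPM in Kupffer nuclei of HNKO mice 1, 2 and 3. In the same nuclei the Kupffer marker Clec4f stood at 970, 1078 and 947 CPM and Cd5l at 1193, 1805 and 1990 CPM. Vsig4, also highest in Kupffer nuclei, stood at 1824, 2263 and 1426 CPM. These values describe each gene on its own, as levels of different genes are not compared. The WT mice had only 6, 6 and 4 Kupffer nuclei, which held 26, 15 and 26 C6 UMIs. In HNKO mice at least 1 C6 UMI was seen in 79.3%, 60.0% and 92.0% of Kupffer nuclei, against 1.96% to 12.7% of endothelial nuclei of the same mice. C9, C8a and C8b were not above background in Kupffer nuclei, with C8b at 0 UMIs, so that among the terminal genes C6 alone exceeded the reference range there with at least 10 UMIs.

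Masp1 exceeded the reference range in stellate nuclei, the vitamin A-storing cells of the sinusoid wall, at 2.64-fold the hepatocyte level with 518 UMIs. It stood at 1434, 847 and 629 CPM in WT mice and 543, 911 and 472 CPM in HNKO mice, in every mouse above its own hepatocytes (241 to 319 CPM). Both genotypes spanned much of the same range. Tested over the 2266 genes with enough stellate counts, the HNKO difference was -0.62 (SE 0.38, edgeR FDR 0.81). The collectins Colec10 and Colec11, with which Masp1 forms complexes, were also highest in stellate nuclei (1000 and 146 CPM), whereas Masp2 and Mbl2 were within the reference range there.

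Pros1 was above the reference range in endothelial, stellate, Kupffer and cholangiocyte nuclei when the mice were summed. It exceeded the highest reference gene of the same mouse in 6 of 6 mice for endothelial, 5 of 6 for stellate, 2 of 3 for Kupffer and 1 of 3 for cholangiocyte nuclei. In Kupffer nuclei it stood at 34.5%, 153.7% and 136.8% of the hepatocyte level in HNKO mice 1, 2 and 3, and in cholangiocyte nuclei at 52.0%, 140.5% and 79.3%. In endothelial nuclei it stood at 202, 209 and 258 CPM in WT mice and at 295, 304 and 330 CPM in HNKO mice, which is 2.39-fold the hepatocyte level over all mice and 1.48-fold to 4.38-fold within each mouse. All HNKO mice lay above all WT mice, with a TMM-scaled log2 fold change of 0.45 (SE 0.25, edgeR FDR 1.00), and 4.78% of the 2743 genes tested in endothelial nuclei were likewise wholly higher. In stellate nuclei Pros1 was at 37.1, 35.3 and 101.5 CPM in WT mice and at 144.5, 178.0 and 133.4 CPM in HNKO mice. The WT values rested on 3, 2 and 10 UMIs. Here too all HNKO mice lay above all WT mice (5.83% of stellate genes did), with a log2 fold change of 1.27 (SE 0.47, unadjusted p = 0.020, reached upward by 4.19% of stellate genes, edgeR FDR 0.65).

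None of the 12 members tested in endothelial nuclei and none of the 5 tested in stellate nuclei passed an FDR of 0.05, as no gene did in either type (0% of 2743 and 0% of 2266). At an unadjusted p below 0.05 there were 0 and 1 members, and DESeq2 called none of them. Endothelial nuclei also held other regulators of clotting at their highest level, among them F8 (1884 CPM), Tfpi (183 CPM), Vwf (37.0 CPM) and Thbd (21.1 CPM).

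C6 and C4b were further members above the range in stellate nuclei. C6 there stood at 98.9, 70.6 and 99.9 CPM in WT mice and 57.8, 109.5 and 59.1 CPM in HNKO mice, from 4 to 16 UMIs per mouse. These levels were above the hepatocyte level of the same mouse in the WT mice and HNKO mouse 2, and below it in HNKO mice 1 and 3. The 5 Kupffer markers summed to 20.7 CPM in stellate nuclei against 4258 CPM in Kupffer nuclei. C4b stood at 61.9% of its hepatocyte level over all mice (26.4%, 25.6% and 91.7% for WT mice 1, 2 and 3, then 93.2%, 24.4% and 89.9% for HNKO mice 1, 2 and 3) and exceeded the highest reference gene of the same mouse in 3 of 6 mice. C7, the remaining subunit of the terminal pathway, was at 86.7 CPM in stellate nuclei and at 0.2 CPM in hepatocytes.

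In cholangiocyte nuclei 11 members were above the range, led by Cfb (130%), C2 (104%) and C8a (102%). All but 2 of these nuclei came from HNKO mice (40, 10 and 58 in HNKO mice 1, 2 and 3), whereas the hepatocyte level was drawn from all mice. The levels that follow are percentages of the hepatocyte CPM of the same mouse, for HNKO mice 1, 2 and 3 in that order, and the highest reference gene stood at 54.2%, 72.8% and 89.8%. C8a (42.7%, 0% and 79.0%), C6 (46.3%, 0% and 21.0%) and C4bp (49.4%, 33.0% and 48.9%) exceeded it in none of the 3 mice. Cfb, the protease of the alternative route, exceeded it in HNKO mice 1 and 3 (151.7%, 0% and 97.0%), with 10 and 17 UMIs. C2, the neighbour of Cfb at a distance of 0.086 kb on the same strand, was at 130.2%, 204.5% and 69.4% with 12 UMIs in all, and Proc was at 58.6%, 117.0% and 60.0%. These genes lay above the range in 2 of 3 mice each. C3 (94.7%, 37.8% and 77.8%), Kng2 (85.8%, 11.8% and 65.4%), Cfi (79.7%, 20.9% and 56.9%) and Masp1 (84.4%, 8.89% and 53.0%) exceeded it in HNKO mouse 1 only.

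In CD45+ nuclei only C6 exceeded the range, at 86.3% with 25 UMIs, and of the mice with at least 10 CD45+ nuclei, WT mouse 2 (1 UMI) and HNKO mouse 2 (6 UMIs) exceeded their own reference genes, at 450.2% and 636.1%. WT mouse 1 had 0 UMIs, and HNKO mice 1 and 3 stood at 33.9% and 45.7%. The Kupffer markers summed to 254 CPM in CD45+ nuclei, against 4258 CPM in Kupffer nuclei. Their part in the C6 level of CD45+ nuclei was not tested. The median member stood at 29.9% of its hepatocyte level in endothelial, 16.1% in stellate, 21.0% in Kupffer, 47.0% in CD45+ and 35.2% in cholangiocyte nuclei, close to the medians of the reference genes (27.9%, 14.8%, 18.2%, 42.5% and 23.0%) except in cholangiocytes. Among the other complement genes, C1qa, C1qb, C1qc and Cfp were highest in Kupffer nuclei (120 to 254 CPM).

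**Figure D5:**
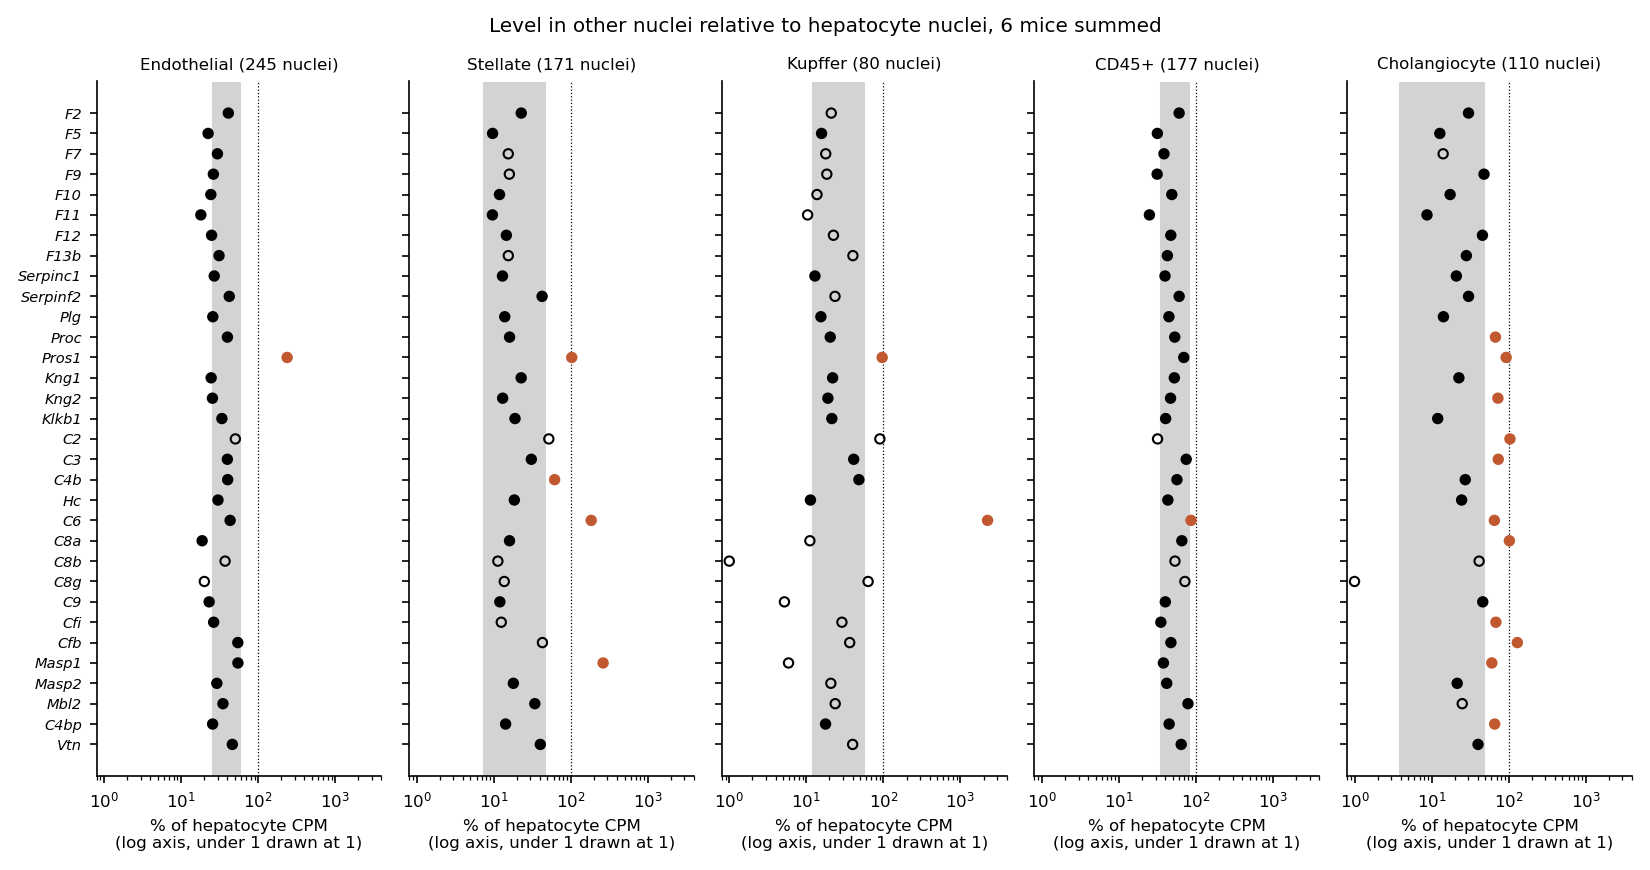
Level of the 32 genes in 5 other cell types as a percentage of their hepatocyte CPM on a log axis, with the mice summed, the range of 10 hepatocyte reference genes in grey, members above it with at least 10 UMIs in orange and members with fewer than 10 UMIs as open circles (those under 1% are drawn at 1). C6 in Kupffer nuclei (2256% as drawn, with a median of 1255% over the 3 HNKO mice), Masp1 in stellate nuclei (264%) and Pros1 in endothelial nuclei (239%) stand furthest to the right, and most other members lie inside the grey range.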

How the data were processed

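The authors mapped 10x Genomics 3′ reads of hashtagged liver nuclei with Alevin onto GRCm38 and GENCODE M25 (Cell Ranger 5.0.1 for read files), counted spliced and unspliced RNA, filtered and clustered nuclei in Seurat and deposited estimated counts per gene and nucleus. Of the nonzero values, 10.1% were not whole within 0.001. An alternative used a second deposited matrix of whole-number scores, which the authors had corrected to a common depth with SCTransform. Deposited hashtag counts were not used. Cluster names and the mouse of each nucleus are the authors', doublets within a mouse were not removed here, and barcodes shared by mice numbered 0.

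Counts were summed per mouse and type (at least 10 nuclei), rounded, and tested with edgeR 4.0.16 in R 4.3.3 (filterByExpr, TMM, quasi-likelihood test of genotype, two-sided, Benjamini-Hochberg FDR 0.05), after testing on simulated data. Each library sum is 1 animal. Genotype levels are TMM-scaled CPM, and levels by type, cluster or zone are CPM of the unscaled total. These CPM are not per length, so levels of different genes are not compared. Central ratios used 0.5 UMI per side as a prior and 20 nuclei per side. Shares of nuclei cover counting error only.

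The genes and lists were chosen with earlier results of these data known. Values per mouse were given for hepatocyte members with non-overlapping genotypes, unadjusted p below 0.05, the 3 largest differences, Kng1 and Kng2, for members above every reference gene in a type with 10 UMIs, and for members of 1 sign in every mouse between Central and other clusters. C8a, C6 and C4bp along the gradient, Pros1 in hepatocytes, Hc, C8g, C3 and further genes were named after their values were seen. Gene positions are from GENCODE M21 on GRCm38 and promoters from RefSeq on GRCm38.p6. Masp3 of the complement list was not analysed here. Tools were DESeq2 1.42.0, Python 3.11.15, numpy 2.4.6, pandas 2.3.3 and matplotlib 3.10.9.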

Additional observations from a re-analysis of the deposited data

How the results depend on the processing

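No member was called in hepatocytes, endothelial or stellate nuclei by edgeR with RLE size factors, by DESeq2, without the count filter or without any single mouse, nor in hepatocytes with library size alone or without the Central clusters. The smallest member FDR in hepatocytes was 0.073 (C6, without the filter), and it was 0.19 without HNKO mouse 2. Over all genes, hepatocyte calls were 0 in the analysis reported, 21 with DESeq2, 36 without the filter and 32 without HNKO mouse 2. The median log2 fold change of the members turned to 0.14 with library size alone, and ranged from -0.16 to 0.076 when single mice were left out, positive without HNKO mouse 1. With library size alone Kng1 and Kng2 turned to 0.13 and 0.11. When single mice were left out, Kng1 ranged from -0.40 to 0.22 and Kng2 from -0.26 to 0.065, positive for both without HNKO mouse 1 or WT mouse 1. The causes were not tested, except that the median of all genes moved by a similar amount with library size alone.

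The 19 pairs of member and cell type above the reference genes became 15 with the median of the ratios per mouse (14 shared), 20 with SCTransform-corrected values (17 shared), 19 in HNKO mice only (17 shared) and 19 to 23 without single mice. C6 in Kupffer, Masp1 in stellate and Pros1 in endothelial and stellate nuclei remained among them throughout. The HNKO-only setting and the Periportal comparison were added after the data were seen. Members of 1 sign between Central and other clusters numbered 7 over 6 mice and 14 over the 3 mice with 50 nuclei per side. They numbered 15 in 4 mice when set against Periportal clusters. The share of all genes beside these counts is given only for the 6 mice. Fewer mice have to share a sign in the other settings, so the counts cannot be compared. Against Periportal clusters, in the 3 WT mice and HNKO mouse 2, the median ratio was -3.62 for C9, 2.05 for Pros1 and 3.50 for C6, where C6 against other clusters had a median of 1.80 over all 6 mice. The C6 ratios of WT mice 2 and 3 rested on 4 and about 1 Central UMIs, against Periportal levels of 1.11 and 3.08 CPM. HNKO mice 1 and 3, in which C6 was near level, did not enter the Periportal comparison.

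Analysis within each sequencing pool was not run, because the table of nuclei gives no pool. No paired analysis was possible because the shared numbers belong to the RNA and hashtag pools, which the labels describe as nuclei of both genotypes together, and the labels give the mice no numbers that pair them. Depth limits the cell types with few nuclei, such as the 16 Kupffer nuclei and 2 cholangiocyte nuclei of WT mice.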
